A study of Mus musculus with 6 samples.

Results

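Endothelial cells line blood and lymphatic vessels, and 34 genes that mark them were followed here in RNA from fibroblasts of the synovium, the tissue that lines the joint. The genes were taken by symbol from the table of raw counts per gene, which holds 24348 genes, and 34 of 34 were found there. All 34 passed the filter on low counts (at least 10 counts in at least 3 libraries) that kept 19925 genes for testing. The 6 libraries are total RNA from fibroblasts sorted after the synovium of adult wild-type C57BL/6 mice was dissected and digested with collagenase. The IC group has 3 libraries from mice injected intravenously with immune complexes (IC), and the vehicle group has 3 libraries from mice injected with the control. The complexes described in the methods are ovalbumin bound by rabbit polyclonal antibodies against it. The methods also give the amounts of antigen and antibody mixed and state that mice of both sexes were used throughout, but not the sex behind each library. Time after injection for these mice, the gate of the fibroblast sort, and whether a library is 1 mouse or a pool are not given in the sources used here. The p-values therefore measure the spread between these libraries.

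Vessels are sealed by junctions built from VE-cadherin (Cdh5) and claudin-5 (Cldn5), and they depend on receptor tyrosine kinases of the VEGF and angiopoietin families (Kdr, Flt1, Flt4, Tek and Tie1). ETS and SOX transcription factors set the identity of the endothelium, with Prox1 setting that of lymphatic vessels. During inflammation, venules display selectins and take leukocytes out of the blood. Capillaries with fenestrae carry PV1, the product of Plvap, and let large molecules leave the blood. The sorted cells carried the marks of fibroblasts. Pdgfra had a mean of 4808 and Col1a1 one of 106068 normalized counts per kilobase of annotated exon over the 6 libraries, where a normalized count is the raw count divided by the size factor of its library. Tek had the highest level of the 34 genes on that scale, at 1376, and Pecam1 (CD31) was at 206.2. Summed over the 34 genes, endothelial counts reached 451.2 to 774.6 CPM (counts scaled to a common library total), against 44468 to 55244 CPM for 10 fibroblast markers. In such RNA, fewer endothelial cells and less RNA of a gene per cell cannot be told apart, and neither can RNA of endothelial cells and a low level of the gene in fibroblasts.

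Of the 34 genes, 4 fell after IC at an adjusted p under 0.05 in DESeq2, a share to be read against 2.10% of all genes tested. They were Kdr, Mmrn1, Cdh5 and Cldn5. None was called higher, and 2 were higher at an unadjusted p under 0.05. Promoters are shown for those of the 4 that the RefSeq table of promoters (assembly GRCm38.p6) holds, because they are the genes called in the comparison. Each sequence is the 250 bases before the start that RefSeq gives the gene, read 5′ to 3′ on the gene's strand. Capitals mark matches to GGAAG or its reverse complement CTTCC. These letters are a form of the GGAA core that ETS factors such as Erg and Fli1 are known to read. Other forms of that core were neither marked nor counted.
Kdr, chr5:75978456-75978705, minus strand: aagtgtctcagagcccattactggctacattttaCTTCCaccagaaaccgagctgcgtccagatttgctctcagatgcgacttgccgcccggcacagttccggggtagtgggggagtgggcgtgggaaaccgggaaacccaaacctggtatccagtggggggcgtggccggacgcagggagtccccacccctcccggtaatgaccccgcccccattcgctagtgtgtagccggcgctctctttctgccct
Mmrn1, chr6:60944067-60944316, plus strand: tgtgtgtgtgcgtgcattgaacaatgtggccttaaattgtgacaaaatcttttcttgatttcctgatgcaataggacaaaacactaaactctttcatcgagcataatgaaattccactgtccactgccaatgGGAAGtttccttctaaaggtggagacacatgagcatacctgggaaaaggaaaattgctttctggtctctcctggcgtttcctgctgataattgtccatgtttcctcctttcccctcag
Cldn5, chr16:18776597-18776846, plus strand: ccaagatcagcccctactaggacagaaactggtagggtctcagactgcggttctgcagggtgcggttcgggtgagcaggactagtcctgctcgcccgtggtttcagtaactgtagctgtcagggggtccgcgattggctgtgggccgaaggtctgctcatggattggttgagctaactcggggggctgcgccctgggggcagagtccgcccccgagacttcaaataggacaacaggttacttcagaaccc
The Kdr and Mmrn1 windows held 1 match each and the Cldn5 window held 0. In the RefSeq table, 17 of the 34 genes had an entry, with 22 promoters between them. These letters stood in 18 of those 22 windows (81.8%) and in 64.1% of all 32851 windows of the same length. The letters ACAAT or their reverse complement ATTGT, which SOX factors are known to read, were found 3 times in the Mmrn1 window and in neither of the others. They stood in 6 of the 22 windows (27.3%) and in 27.7% of all windows. Both motifs were sought on both strands, with overlapping matches counted, and a match is a description of the letters only. The Mmrn1 start in RefSeq lies inside the span that GENCODE M21 gives the gene. Its window is therefore not upstream of the GENCODE start, at 60924976, and whether it acts as a promoter was not tested.

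Library IC 3 stood apart for most of these genes, and this bears on most of the results. It was the lowest of all 6 libraries for 24 of the 34 genes, against 18.8% of all genes tested. It was the lowest of the 3 IC libraries for 31, against 7439 of the 19925 genes tested. Relative to the vehicle mean, the median of the 34 genes on a log2 scale was −0.32 in IC 1, −0.12 in IC 2 and −0.98 in IC 3. Vehicle libraries 1 to 3 were at 0.05, −0.17 and 0.06. The members of the list summed to 613.6, 660.8 and 451.2 CPM in IC 1, IC 2 and IC 3, and to 774.6, 678.5 and 742.7 in the vehicle libraries. All 3 IC sums thus lay below all 3 vehicle sums, by the smallest margin between IC 2 and vehicle 2. Values below are given with IC 3 and, where it carries a call, without it.

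**Figure D1:**
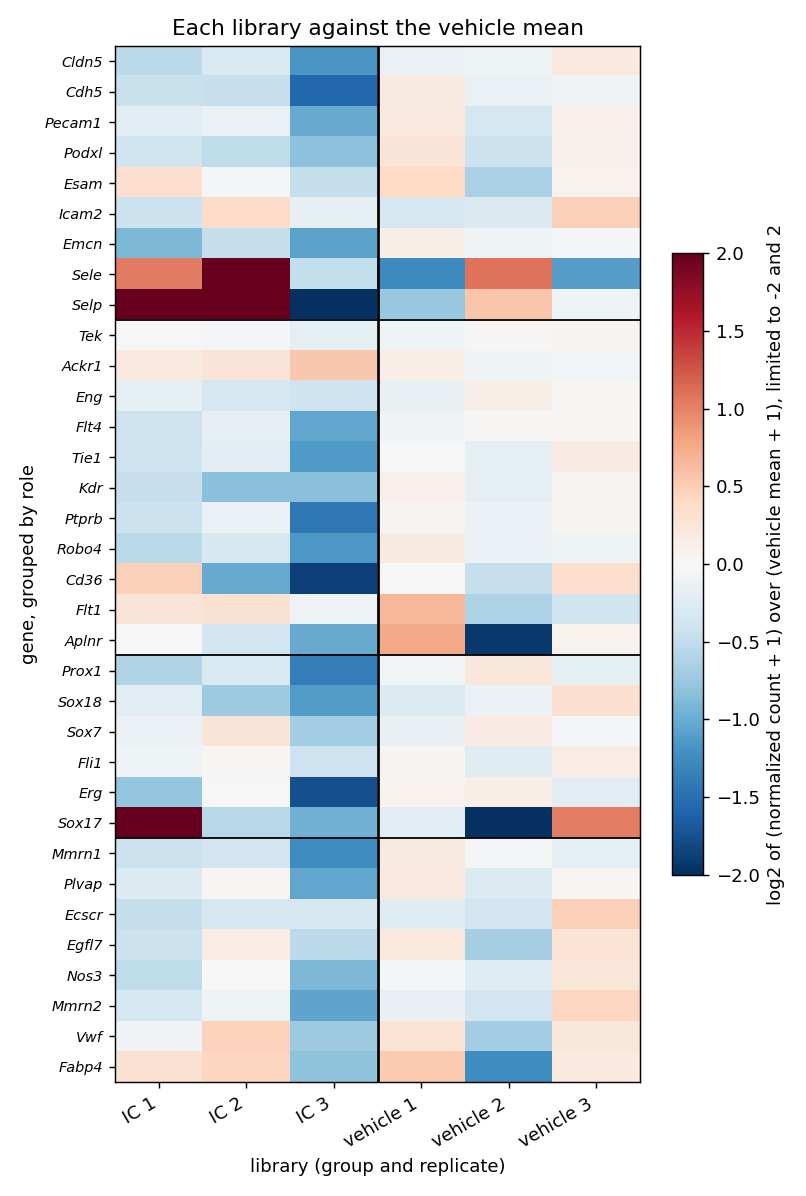
Level of each of the 34 endothelial genes in each library, as log2 of the normalized count plus 1 over the vehicle mean plus 1, with blue below and red above that mean and the color limited to −2 and 2. The column of IC 3 is the bluest, with a median of −0.98, while Ackr1 is red in all 3 IC columns and the selectins Sele and Selp are red in IC 1 and IC 2.

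The comparison of IC with vehicle asks whether the endothelial transcripts in the sorted cells changed after circulating IC. By the Wald test of DESeq2, 4 of the 34 genes were called at an adjusted p under 0.05 (Benjamini-Hochberg), all 4 lower, and 30 were not. The adjustment covered those of the 19925 genes that passed the default independent filtering of DESeq2 on mean count. With that filtering off, 2 of the 34 were called, Kdr and Mmrn1. Of all genes tested, 1.07% were called lower and 1.03% higher. At an unadjusted p under 0.05, 16 of the 34 genes passed, against 9.80% of all genes, with 14 lower (4.88% of all genes) and 2 higher (4.91%). The quasi-likelihood test of edgeR called 0 of the 34, with 12 lower and 2 higher at an unadjusted p under 0.05 (4.84% of all genes lower and 9.64% in either direction), and it called 0.186% of all genes. In limma-voom, 1 of the 34 was called (Kdr), beside 0.311% of all genes. The log2 fold change (IC over vehicle) was below 0 for 28 of the 34 genes, against 50.4% of all genes. Its median was −0.41 with quartiles of −0.61 and −0.05, and the median of all genes tested was −0.0019. Without IC 3 the median of the 34 was −0.20 and 24 of them were below 0. In 10 of the 34 genes all 3 IC libraries lay below all 3 vehicle libraries, which was so for 7.67% of all genes. The reverse held for 1 gene, Ackr1, and for 8.09% of all genes.

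**Figure D2:**
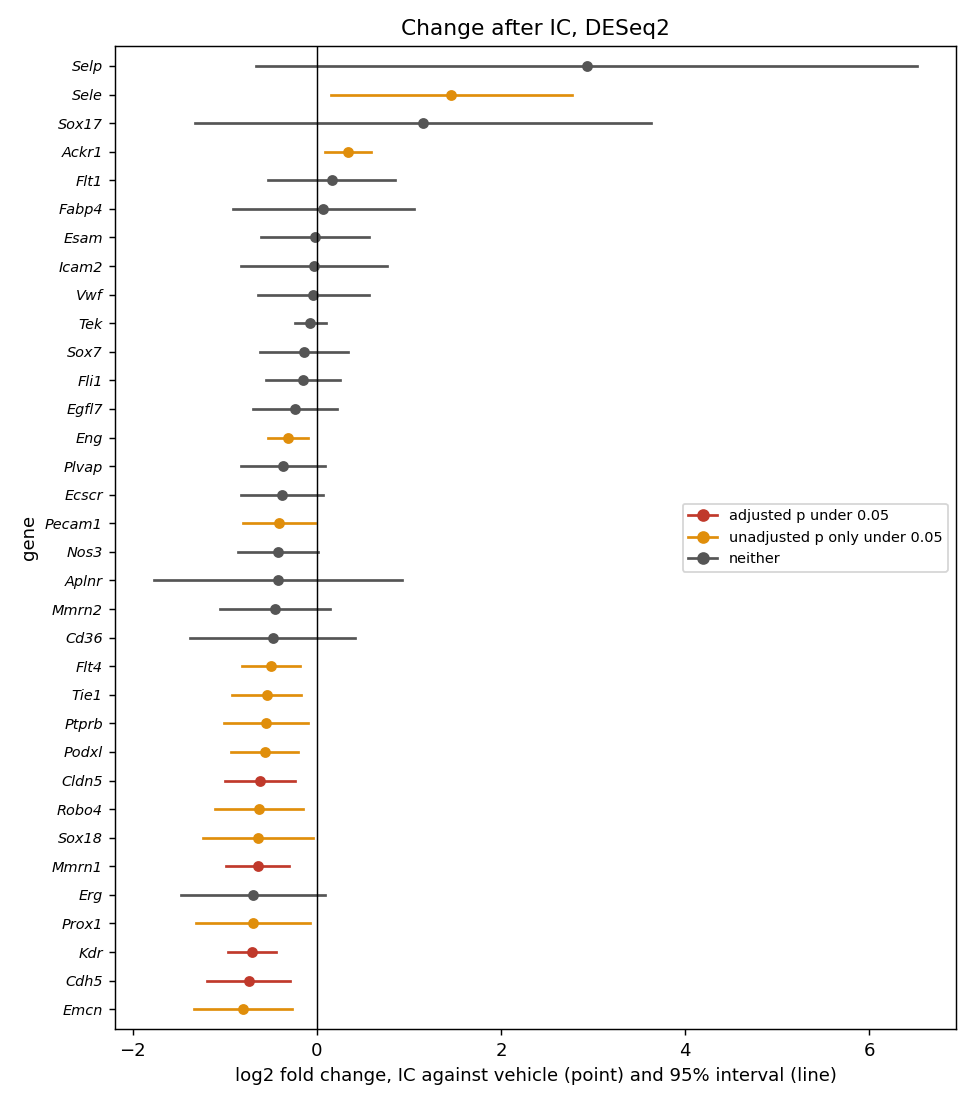
Log2 fold change of each endothelial gene after IC (point) with its 95% interval (line), by DESeq2, 3 libraries against 3, ordered from highest to lowest. Red marks the 4 genes with an adjusted p under 0.05, orange the other 12 with an unadjusted p under 0.05 only; most points lie below 0, and the intervals of Selp and Sox17 are the widest.

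Of 11 receptors, 1 fell and 10 did not pass the test. Kdr, the main signaling receptor for VEGF in blood vessels (chromosome 5, 75932827 to 75978458, minus strand, GRCm38), was at 1631, 1264 and 1264 normalized counts after IC (replicates 1, 2 and 3) and at 2424, 2001 and 2342 after vehicle. The groups did not overlap. Its mean after IC was 61.5% of the vehicle mean, with a log2 fold change of −0.70 (SE 0.13, adjusted p 3.45e-05 in DESeq2). It passed the same test whichever library was left out, with log2 fold changes of −0.84 to −0.64. In edgeR its adjusted p was 0.0537. IC 2 and IC 3 were equally low for Kdr, and without IC 3 its log2 fold change was −0.64.

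The second receptor kinase of the VEGF family was measured beside it. Flt4, the VEGF-C receptor of lymphatic endothelium, was at 2387, 2832 and 1543 normalized counts in IC 1, IC 2 and IC 3 and at 3028, 3238 and 3269.6 in vehicle 1, 2 and 3. Its groups did not overlap, but the log2 fold change was −0.50 (SE 0.16, adjusted p 0.0713 in DESeq2). Without IC 3 the log2 fold change was −0.28 and the adjusted p of DESeq2 was 0.256, whereas without IC 2 they were −0.70 and 0.00555, a call. Flt1, the decoy-like VEGF receptor, lay at 12.97 normalized counts per kilobase, under the 201.6 of Kdr and the 330.0 of Flt4. Its IC libraries fell inside the vehicle range of 107.7 to 261.6 normalized counts, and its log2 fold change had a 95% interval of −0.53 to 0.85.

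The pair of angiopoietin receptors had different values. Tek, which binds the angiopoietins, was at 6699, 6462 and 5828 normalized counts after IC (replicates 1, 2 and 3) and at 6274, 6747 and 6897 after vehicle. Its groups overlapped, and its 95% interval of −0.24 to 0.10 was the narrowest of the 34. Tie1, the partner receptor of Tek, was at 1060.1, 1207 and 642.5 normalized counts in IC 1, IC 2 and IC 3 and at 1413, 1252 and 1581 in vehicle 1, 2 and 3. All 3 IC libraries lay below the vehicle libraries, IC 3 the furthest, with a log2 fold change of −0.55 (SE 0.19, adjusted p 0.111 in DESeq2), and −0.32 without IC 3. It was called without IC 2, at −0.74 and an adjusted p of 0.0355 in DESeq2.

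The remaining receptors act on other signals. Ptprb, the phosphatase VE-PTP that restrains Tek signaling, was at 851.8, 1059 and 423.9 normalized counts after IC (replicates 1, 2 and 3) and at 1185, 1052 and 1194 after vehicle. IC 2 overlapped the vehicle libraries, and the log2 fold change was −0.56 (SE 0.23, adjusted p 0.253 in DESeq2). Without IC 2 it was called, with −0.85 on the log2 scale (adjusted p 0.0463 in DESeq2), and without IC 3 it was −0.26 (adjusted p 0.645). Robo4, a guidance receptor that stabilizes vessels, was at 273.3, 318.3 and 178.3 normalized counts in IC 1, IC 2 and IC 3 and at 449.3, 367.4 and 374.5 in vehicle 1, 2 and 3. Its groups did not overlap, with a log2 fold change of −0.63 (SE 0.24, adjusted p 0.182 in DESeq2). Eng (endoglin), a co-receptor for BMP9 that some fibroblasts also carry, was at 2009, 1821 and 1728 normalized counts after IC (replicates 1, 2 and 3) and at 2080.2, 2488 and 2332 after vehicle. Its groups did not overlap either, with a log2 fold change of −0.31 (SE 0.11, adjusted p 0.13 in DESeq2), and it was called without vehicle 1, with −0.38 on the log2 scale (adjusted p 0.0277 in DESeq2). Eng overlaps Fpgs on the other strand, and the use of strand in counting is not given in the sources used here.

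Ackr1 was the exception in direction among the well-expressed receptors. It encodes the atypical chemokine receptor that marks venules and carries chemokines across them, and its libraries were at 1732, 1802 and 2208 normalized counts in IC 1, IC 2 and IC 3 and at 1661, 1431 and 1451 in vehicle 1, 2 and 3. All 3 IC libraries were above all 3 vehicle libraries, and IC 3, the lowest library for most other genes, was the highest here. The log2 fold change of 0.34 (SE 0.13, adjusted p 0.163 in DESeq2) missed the threshold, and its 95% interval ran from 0.09 to 0.59. Without IC 3 the change was 0.22. Ackr1 shares exon bases with Cadm3 on the same strand, so that reads there could belong to either gene. The scavenger receptor gene Cd36, which adipocytes and macrophages also express, and the apelin receptor gene Aplnr had log2 fold changes of −0.48 and −0.42 with adjusted p values in DESeq2 of 0.828 and 0.926, and their groups overlapped. Cd36 was called lower without IC 1, with −1.39 on the log2 scale (adjusted p 0.046 in DESeq2), and its change was −0.09 without IC 3 (adjusted p 0.985).

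**Figure D3:**
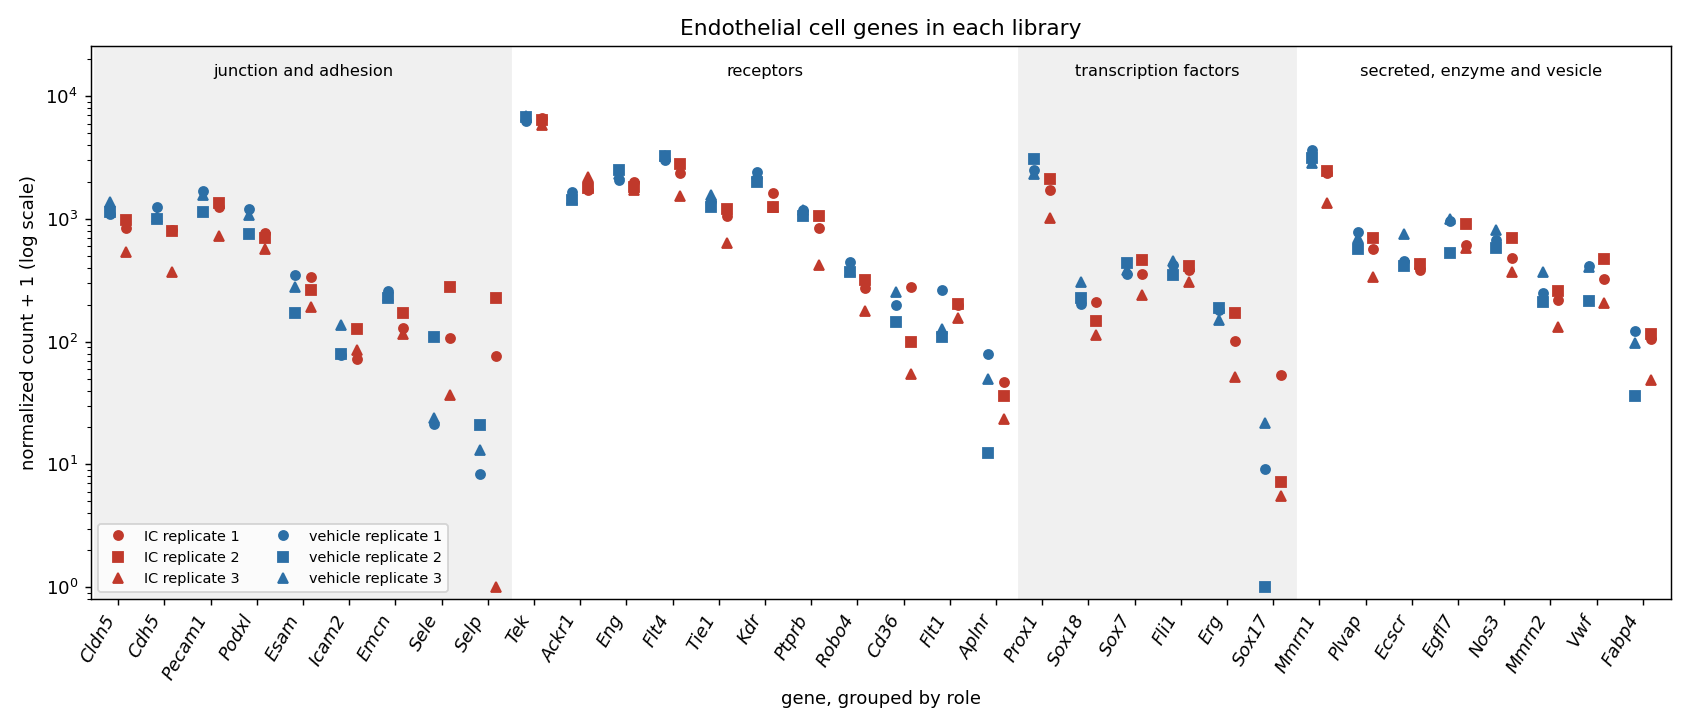
Normalized count plus 1 of each of the 34 genes in each library, on a log axis, grouped by role and ordered by counts per kilobase of exon within a role, with IC in red, vehicle in blue and a symbol for each replicate number. Levels run from a mean of 6639 after vehicle (Tek) to the floor, where Selp in IC 3 and Sox17 in vehicle 2 have a count of 0.

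Of 9 junction and adhesion genes, 2 fell and 7 did not pass. Cdh5, the cadherin of endothelial junctions (chromosome 8, 104101625 to 104144511, plus strand), was at 807.7, 793.8 and 369.2 normalized counts after IC (replicates 1, 2 and 3) and at 1247, 996.5 and 1043 after vehicle. The groups did not overlap, and IC 3 was far below IC 1 and IC 2, which were close together. Its mean after IC was 59.96% of the vehicle mean, with a log2 fold change of −0.74 (SE 0.23, adjusted p 0.0496 in DESeq2). Without IC 3 the change was −0.45 with an adjusted p of 0.135 in DESeq2, and of the 6 fits that left a library out the call held in 1, that without IC 1.

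Cldn5, the claudin of endothelial tight junctions (chromosome 16, 18776847 to 18778262, plus strand), was at 838.6, 976.7 and 535.0 normalized counts in IC 1, IC 2 and IC 3 and at 1097, 1137 and 1374 in vehicle 1, 2 and 3. Here too the groups did not overlap and IC 3 was the lowest, and the mean after IC was 65.1% of the vehicle mean. Its log2 fold change was −0.62 (SE 0.19, adjusted p 0.0496 in DESeq2). Without IC 3 it was −0.40 (adjusted p 0.256 in DESeq2), and the call held in 1 of 6 such fits, that without IC 2. In edgeR the adjusted p was 0.319 for Cdh5 and 0.283 for Cldn5, and neither was called.

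The pan-endothelial adhesion gene Pecam1, also present on platelets and leukocytes, was at 1249.6, 1338 and 725.8 normalized counts after IC (replicates 1, 2 and 3) and at 1685, 1144 and 1562 after vehicle. IC 1 and IC 2 overlapped the vehicle range, and the log2 fold change of −0.41 (SE 0.20, adjusted p 0.402 in DESeq2) was −0.18 without IC 3. Podxl, an anti-adhesive sialomucin also known from mesothelium, was at 764.7, 705.9 and 569.9 normalized counts in IC 1, IC 2 and IC 3 and at 1202, 748.1 and 1070.0 in vehicle 1, 2 and 3. IC 1 lay above vehicle 2, so the groups overlapped, with a log2 fold change of −0.57 (SE 0.19, adjusted p 0.0766 in DESeq2). Without vehicle 2 it was called, with −0.74 on the log2 scale (adjusted p 0.00298 in DESeq2). Emcn, a sialomucin of veins and capillaries, was at 127.8, 171.6 and 113.8 normalized counts after IC (replicates 1, 2 and 3) and at 259.1, 225.8 and 234.7 after vehicle. It had the lowest log2 fold change of the 34 genes, −0.80 (SE 0.27, adjusted p 0.0924 in DESeq2), and its groups did not overlap. Without IC 3 its change was −0.68, and without IC 2 it was called, with −0.99 on the log2 scale (adjusted p 0.0414 in DESeq2). Esam and Icam2, adhesion molecules of the junction and of the luminal face, had log2 fold changes of −0.02 and −0.03 with 95% intervals of −0.61 to 0.57 and −0.83 to 0.76.

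The selectins, which catch rolling leukocytes on activated venules, varied widely between libraries of a group. Sele (E-selectin) was at 105.8, 278.0 and 35.8 normalized counts in IC 1, IC 2 and IC 3 and at 20.5, 108.6 and 23.1 in vehicle 1, 2 and 3. IC 1 and IC 2 were high in the IC group, vehicle 2 was slightly above IC 1, and the groups overlapped. Its log2 fold change was 1.46 (SE 0.67, adjusted p 0.334 in DESeq2). Without vehicle 2 it was 2.68 with an adjusted p of 0.0150 in DESeq2, and without IC 2 it was 0.48. Selp (P-selectin), also stored in platelets, was at 74.9, 225.3 and 0 normalized counts after IC (replicates 1, 2 and 3) and at 7.38, 19.8 and 12.2 after vehicle. The raw count was 0 in IC 3, and its log2 fold change of 2.93 (SE 1.83, adjusted p 0.611 in DESeq2) carried the largest error of the 34. Without IC 3 the change was 3.52 with an adjusted p of 3.87e-05 in DESeq2, the only fit of the 6 in which it was called. Both selectins were thus higher in IC 1 and IC 2 than in vehicle 1 and vehicle 3, and neither separated the groups.

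Of the 8 secreted, enzyme and vesicle genes, 1 fell and 7 did not pass. Mmrn1, which encodes multimerin 1, a factor V binding protein of platelets and endothelium that also marks lymphatic vessels (chromosome 6, 60924976 to 60989378, plus strand), was at 2380.2, 2464 and 1349 normalized counts in IC 1, IC 2 and IC 3 and at 3665, 3145 and 2855 in vehicle 1, 2 and 3. The groups did not overlap, and IC 3 was far below IC 1 and IC 2. Its mean after IC was 64.1% of the vehicle mean, with a log2 fold change of −0.64 (SE 0.17, adjusted p 0.0141 in DESeq2). It was −0.41 without IC 3 (adjusted p 0.0572 in DESeq2), and the call held in 2 of the 6 fits that left a library out, those without IC 1 and without IC 2. In edgeR the adjusted p was 0.252.

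**Figure D4:**
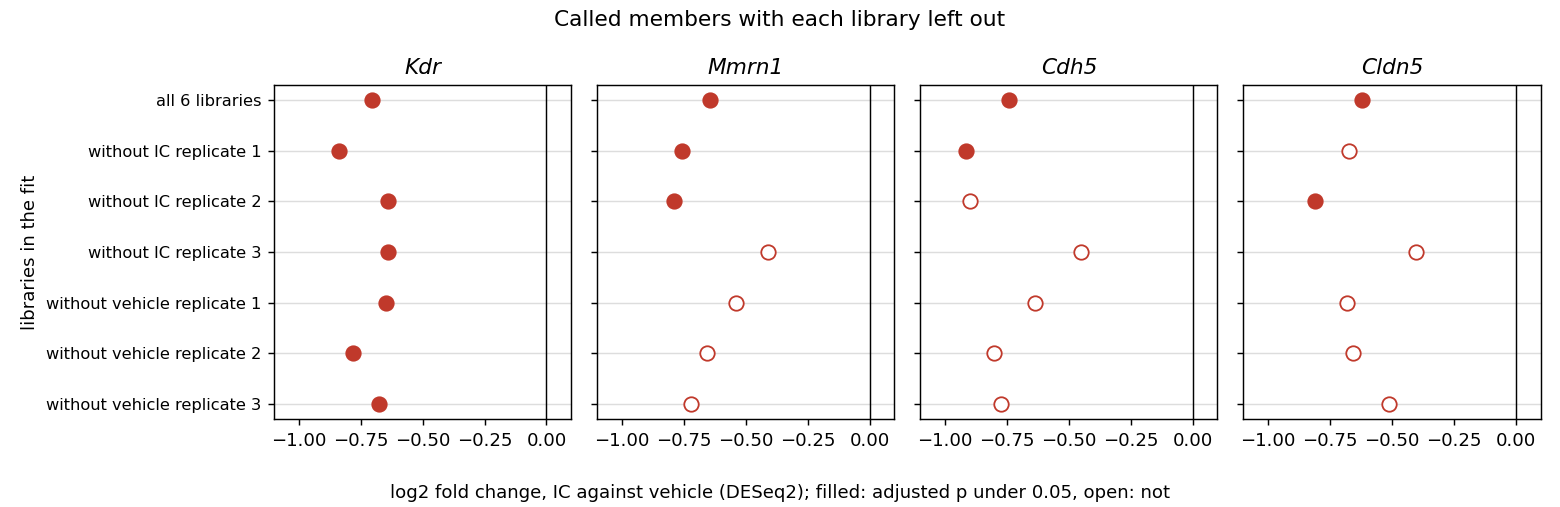
Log2 fold change of the 4 called genes in DESeq2 with all 6 libraries and with each left out in turn, with filled points for an adjusted p under 0.05 and open points for others. Kdr is filled in every fit and lies between −0.84 and −0.64, while Mmrn1, Cdh5 and Cldn5 lie nearest 0 without IC 3 and are open there.

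Plvap, whose product PV1 forms the diaphragms of fenestrated capillaries, was at 565.3, 695.6 and 333.4 normalized counts after IC (replicates 1, 2 and 3) and at 785.5, 570.5 and 702.8 after vehicle. IC 2 lay above vehicle 2, the groups overlapped, and the log2 fold change was −0.37 (SE 0.23, adjusted p 0.617 in DESeq2). Without IC 3 it was −0.12 (adjusted p 0.936 in DESeq2). Ecscr, a surface protein of endothelial migration, was at 386.8, 425.8 and 431.9 normalized counts in IC 1, IC 2 and IC 3 and at 454.3, 414.7 and 750.2 in vehicle 1, 2 and 3. Vehicle 3 alone was high, and without it the log2 fold change of −0.38 became −0.07. Egfl7 (a secreted matrix protein, whose gene hosts Mir126a), Nos3 (endothelial nitric oxide synthase), Mmrn2, Vwf (von Willebrand factor) and Fabp4 (a fatty acid carrier of capillaries and adipocytes) had log2 fold changes of −0.45 to 0.07 and adjusted p values in DESeq2 of 0.475 to 0.992, and their groups overlapped. Exons of Egfl7 are shared with Gm20532 and Mir126a on the same strand. Exons of Egfl7, Nos3, Ecscr, Selp and Sox17 are shared with genes on the other strand.

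None of the 6 transcription factors was called by DESeq2, and 2 were lower at an unadjusted p under 0.05. Prox1, the switch of lymphatic identity, which is also known from muscle, was at 1739, 2134 and 1014 normalized counts after IC (replicates 1, 2 and 3) and at 2530.4, 3076 and 2311 after vehicle. Its groups did not overlap, and IC 3 was the lowest. The log2 fold change was −0.70 (SE 0.32, adjusted p 0.328 in DESeq2), and −0.45 without IC 3. Without IC 2 it was called, with −0.94 on the log2 scale (adjusted p 0.00146 in DESeq2). Prox1 overlaps Prox1os on the other strand. Sox18, an early factor of vessel and lymphatic fate, was at 211.6, 146.8 and 112.0 normalized counts in IC 1, IC 2 and IC 3 and at 202.5, 224.8 and 306.4 in vehicle 1, 2 and 3. IC 1 lay above vehicle 1, and the log2 fold change was −0.64 (SE 0.30, adjusted p 0.367 in DESeq2). The ETS factors Erg and Fli1 and the factor Sox7 had log2 fold changes of −0.69, −0.15 and −0.14, with adjusted p values in DESeq2 of 0.552, 0.903 and 0.932. Sox17, a factor of arteries, had raw counts too low for an adjusted p, with a count of 0 in vehicle 2.

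Summed by role, the genes differed in how far the groups stood apart. Transcription factors summed to 59.3, 70.3 and 35.7 CPM in IC 1 to IC 3 and to 79.6, 86.6 and 74.3 in vehicle 1 to 3. Receptors summed to 357.4, 360.4 and 290.1 against 409.8, 382.3 and 407.3. Neither sum overlapped between groups, but single genes weighed heavily in both. Prox1 had the highest counts of the 6 factors and was the only 1 of them whose groups did not overlap. Tek had the highest counts of the 11 receptors, and its groups overlapped. Junction and adhesion genes summed to 54.2 to 102.8 after IC and 93.9 to 127.9 after vehicle, and the secreted group to 71.2 to 127.3 and 115.6 to 157.5, and in both the highest IC library was above the lowest vehicle library.

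On the scale of normalized counts per kilobase, the 10 highest of the 34 genes were, from the top, Tek, Ackr1, Cldn5, Eng, Mmrn1, Flt4, Plvap, Ecscr, Prox1 and Tie1. Flt4, Mmrn1 and Prox1, which are known from lymphatic endothelium, were at 330.0, 450.4 and 254.4. Genes known from blood vessels lay on both sides of them, with Ackr1 at 1220.0, Plvap at 306.4, Vwf at 21.1 and Flt1 at 12.97. The pan-endothelial genes Cdh5 and Pecam1 were at 208.5 and 206.2, and Kdr was at 201.6. These levels are means over IC and vehicle libraries together, and differences between neighbors in this order were not tested.

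In a list of 50 other endothelial genes, all 50 were tested and 3 fell, none rose and 47 did not pass in DESeq2, where 1.07% of all genes fell. At an unadjusted p under 0.05, 12 were lower and 3 higher, against 4.88% and 4.91% of all genes, and the median log2 fold change was −0.26. In edgeR 0 were called, with 10 lower and 2 higher at an unadjusted p under 0.05. IC 3 was low for this list too, as the lowest of all 6 libraries for 28 of the 50 (18.8% of all genes). Relative to the vehicle mean, the median of the 50 genes on a log2 scale was −0.24 in IC 1, −0.08 in IC 2 and −0.48 in IC 3. Calcrl, the receptor subunit for adrenomedullin and CGRP, was at 3836, 3838 and 3468 normalized counts after IC (replicates 1, 2 and 3) and at 4676, 4910.0 and 5493 after vehicle. Its groups did not overlap, with a log2 fold change of −0.44 (SE 0.09, adjusted p 0.000612 in DESeq2), and it was called whichever library was left out. Elk3, an ETS-family factor, was at 1786, 1774 and 1745 normalized counts in IC 1, IC 2 and IC 3 and at 2049.9, 2396 and 2373 in vehicle 1, 2 and 3, with a log2 fold change of −0.36 (SE 0.11, adjusted p 0.031 in DESeq2). Stab2, a hyaluronan scavenger receptor of sinusoids and lymphatics, was at 62.8, 44.4 and 60.04 normalized counts after IC (replicates 1, 2 and 3) and at 99.2, 148.3 and 153.2 after vehicle, with a log2 fold change of −1.26 (SE 0.38, adjusted p 0.0405 in DESeq2). The calls of Elk3 and Stab2 each held in 1 of the 6 fits that left a library out, that without vehicle 1, and without IC 3 their changes were −0.35 and −1.31. The 3 genes next in order of p were Adgrl4 (log2 fold change −1.73, adjusted p 0.0507 in DESeq2), the arterial connexin gene Gja4 (−1.09, 0.0581) and She (−0.70, 0.0712), and their groups did not overlap. Some genes of this list are known from fibroblasts too. Among them, Cd34 and Klf4 were at 7935 and 27912 normalized counts per kilobase, far above Tek, and the list summed to 5581 to 5847 CPM after IC and 5716 to 6127 after vehicle.

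Ligands and co-receptors that act on the receptors were taken from a list of 24 symbols, of which 21 were in the table and tested. The other 3 symbols were not in the table and were not analyzed here. Bmp9 and Gdf2, both on the list, name the same gene. DESeq2 called 1 (2.10% of all genes were called), Angpt4, an angiopoietin that binds Tek, which was at 149.9, 145.7 and 224.0 normalized counts in IC 1, IC 2 and IC 3 and at 249.3, 486.5 and 285.7 in vehicle 1, 2 and 3. Its groups did not overlap, and the log2 fold change was −0.97 (SE 0.30, adjusted p 0.0464 in DESeq2). The call held in 2 of the 6 fits that left a library out, those without IC 3 and without vehicle 1. Vehicle 2 was the highest library, and without it the change was −0.62 (adjusted p 0.469 in DESeq2). At an unadjusted p under 0.05, 5 genes were lower and 1 higher, and over all genes these shares were 4.88% and 4.91%. In edgeR 0 were called, with 6 lower and 2 higher at that threshold. Angpt1, the main agonist of Tek, and Angpt2, its context-dependent antagonist, had log2 fold changes of −0.26 (adjusted p 0.244 in DESeq2) and −0.33 (0.349), each with groups that did not overlap. Cxcl12, a chemokine that guides endothelial cells, was at −0.31 (0.0929), Adm (adrenomedullin) at −0.26 (0.308) and Nrp2, the co-receptor of Flt4, at 0.26 (0.173). Vegfa, the ligand of Kdr, had a log2 fold change of 0.03 with a 95% interval of −0.12 to 0.18, on a mean of 10989.9 normalized counts after vehicle. Vegfc and Vegfd, the ligands of Flt4, had −0.11 and 0.26, with adjusted p values in DESeq2 of 0.934 and 0.441.

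Markers of other cells were summed in the same libraries, and their part in the results was not tested. The counts below stand against 1.07% of all genes called lower in DESeq2 and 50.4% with a log2 fold change below 0. By the adjusted p of edgeR, 0 genes of any of these lists were called. Of 12 mural cell markers, 11 were in the table, with sums of 950.1 to 1062 CPM after IC and 996.0 to 1060 after vehicle. Their median log2 fold change was −0.30, and 1, the smooth muscle myosin gene Myh11, fell (−0.96, adjusted p 0.0131 in DESeq2). For 6 of these 11 genes IC 3 was the lowest of all 6 libraries. Myh11 was at 698.6, 320.4 and 293.0 normalized counts after IC (replicates 1, 2 and 3) and at 834.7, 942.7 and 778.2 after vehicle, high in IC 1 and low in IC 2 and IC 3, and its call held in 1 of the 6 fits that left a library out, that without IC 1, where its change was −1.48. Skeletal muscle markers summed to 14.8 to 29.6 CPM after IC, lowest in IC 3, and to 25.5 to 61.5 after vehicle. Their median log2 fold change was −1.69, and 2 of 11 tested fell, the myosin gene Myh1 (−2.96, adjusted p 0.00311 in DESeq2) and the actinin gene Actn3 (−1.59, 0.0035). Myh1 was not called without IC 3, vehicle 1 or vehicle 2, nor Actn3 without vehicle 2. Adipocyte markers summed to 476.5 to 556.8 and 573.8 to 702.5 CPM. Their median log2 fold change was −0.36, with 7 of 7 tested below 0, and 1 fell, the lipoprotein lipase gene Lpl (−0.36, adjusted p 0.0292 in DESeq2), which was called in 2 of the 6 fits that left a library out, those without IC 3 and without vehicle 1. The defining genes Adipoq and Plin1 had means of 7.35 and 9.56 normalized counts after IC and 22.8 and 24.3 after vehicle. Leukocyte markers summed to 25.1 to 36.7 and 27.9 to 33.6 over the 5 of 15 in the table, with IC 3 the lowest. Platelet markers summed to 28.9 to 34.9 and 30.3 to 34.1 over 4 of 10. Itga2b made up nearly all of that sum, while Gp1ba, Gp1bb and Ppbp had means under 10 normalized counts in both groups. Erythroid markers summed to 2.23 to 2.83 and 0.897 to 2.52. The 10 fibroblast markers summed to 44468 to 46197 after IC and 45405 to 55244 after vehicle. IC 3 was the lowest library for 0 of the 10. The median log2 fold change of the 10 was −0.16, with 8 below 0. DESeq2 called 2 lower, Lum and Col3a1, and 1 higher, Prg4, a gene of the lining layer. Over all genes, 1.07% were called lower and 1.03% higher. At an unadjusted p under 0.05 in DESeq2, 5 were lower and 1 higher, against 4.88% and 4.91% of all genes.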

How the data were processed

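Total RNA was sequenced from sorted synovial fibroblasts, 3 libraries after IC and 3 after vehicle, grouped by the treatment label and title. The deposited files hold unnormalized read counts for each gene. The authors produced these counts with Trim Galore, FastQC, HISAT2 (build mm10) and featureCounts, as their processing notes list them. Versions, annotation and strand setting are not given in the sources used here. The labels name a Ribo-Zero Plus kit from Illumina and the methods name a SMARTer stranded kit for low input, and the methods state batch removal with sva without details.

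Totals were 40114331 to 56714304 counts per library. No column went unmapped (0), and each per-sample file was identical to its column in the combined table. The 4423 genes without at least 10 counts in at least 3 libraries held 0.0429% of counts and were left out. Main tests were Wald tests of DESeq2 (version 1.42.0, R 4.3.3) on 19925 genes, with default settings and no covariate. Calls were made below 0.05 after Benjamini-Hochberg adjustment. With its default independent filtering, DESeq2 gave no adjusted p to 3870 of the genes, and the adjustment covered the others. Fold changes are unshrunken, and 95% intervals are the estimate plus or minus 1.96 SE. Coordinates and exon lengths came from GENCODE M21 (GRCm38, the assembly of mm10) by symbol, with 1-based positions.

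Alternatives were edgeR (4.0.16), limma-voom (3.58.1), size factors from TMM or from totals, every gene kept or those averaging 100 normalized counts or more, independent filtering or the Cook cutoff off, a replicate block, 1 surrogate variable from sva (3.50.0) and each library left out. edgeR with the block was added after seeing the data. The scripts were tested on simulated data. No 2 libraries of a group agreed within sampling noise (chi-square per degree of freedom 15.2 to 68.4).

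The endothelial genes and the other lists were chosen with earlier results of these data known. Library values are given for genes with an unadjusted p under 0.05, for Pecam1, Cdh5, Kdr and Plvap, and for the 10 highest per kilobase. Of the other lists, called genes and up to 6 more by p are named. Library values of Selp, and Cd34, Klf4, Vegfa, Vegfc, Adipoq, Plin1 and the platelet genes, were added after their values were seen.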

Additional observations from a re-analysis of the deposited data

How the results depend on the processing

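The median log2 fold change of the 34 endothelial genes stayed below 0 under every alternative run, from −0.53 (without vehicle 2) to −0.20 (without IC 3). Kdr kept its call in all alternatives except edgeR, with and without the block. The number of the 34 called, 4 in DESeq2, was 0 in edgeR (14 at an unadjusted p under 0.05), 1 in limma-voom, 1 with total-count factors and 2 with independent filtering off. With 1 surrogate variable 2 were called lower (Kdr, Podxl) and 1 higher (Sele). Leaving out 1 library gave 1 to 8 called, 1 to 8 lower and 0 to 1 higher, with 8 without IC 2 and 1 without vehicle 3. The gene called higher was Selp without IC 3 and Sele without vehicle 2. Of all genes, 419 were called, against 37 in edgeR, 62 in limma-voom, 22 in edgeR with the block, and 282 to 671 without 1 library. The other endothelial genes, 3 called, gave 0 in edgeR, 0 in limma-voom and 1 to 7 without 1 library, lowest without IC 3 or vehicle 3 and highest without vehicle 1. The vascular ligands, 1 called, gave 0 in edgeR, 0 in limma-voom, 0 with independent filtering off, 0 with the surrogate variable and 0 to 4 without 1 library. The cause of these shifts was not tested, except that a left-out library lowers the sample number. Among the fold changes of the 19 genes whose library values were to be given, none changed direction, 275 kept their side of the threshold, 12 gained and 35 lost a call. Over all 34 genes, 8 changed direction in at least 1 fit without a library (Aplnr, Esam, Fabp4, Flt1, Icam2, Sox17, Sox7 and Vwf), and 24 to 30 lay below 0.

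Deviations of libraries with the same number correlated at −0.09, −0.16 and 0.02 over 13435 genes. These correlations pool all those genes and cannot settle whether the numbers pair the samples. With the replicate number as a block, DESeq2 called 5 of the 34 (Cdh5, Flt4, Kdr, Mmrn1 and Prox1), 0 vascular ligands and 320 genes in all. edgeR with the block called 0 of the 34, 0 of the other endothelial genes and 0 vascular ligands. With 3 libraries a group, Selp, Sox17, Aplnr and Sele, all of low counts, had the widest intervals.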
